A study of Mus musculus with 13 samples.

Results

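Of 2036 genes listed as changed between Klf1 genotypes of mouse fetal liver, 71 were low both with the MommeD45 allele and with no intact Klf1 allele. They were chosen from the abundances (FPKM, fragments mapped to a gene, scaled by its transcript length and by library size) in the authors' deposited table, by a rule that asked for at least 5 FPKM in +/- livers, and for D45/- and -/- levels that were each at most 60% of the +/- level. The rule needed a value in all 3 genotypes, which 1001 listed genes had. Of these, 97 met the thresholds. Of the 97, 26 were then dropped by name: 7 solute carrier genes, the embryonic globin gene Hba-x and 18 others, among them the red cell genes Epb4.9, Pklr and E2f2. The low levels in D45/- and -/- livers are therefore what defines the 71 genes, and are given below as a description.

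Fetal livers were taken at 14.5 days post coitum, and mRNA was sequenced from 3 replicates per genotype after globin transcripts had been depleted. D45/- livers carried the MommeD45 allele over a null allele, -/- livers had no intact allele, and +/- livers had 1 intact allele over a null allele, so every mRNA library carried at least 1 null allele. The series title places the mutation in linker 2 of KLF1. Chromatin bound by KLF1 was profiled in MommeD45 and wildtype livers, with 1 ChIP library and 1 input each, made from 2 pooled replicates. The sources used here do not give the number of MommeD45 copies in the ChIP livers. No cell sort is stated and the RNA was bulk liver RNA, so fewer cells of a type and less RNA per cell cannot be told apart in any value below.

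KLF1 recognises CACCC-type elements through its zinc fingers. In red cell precursors it activates genes for globins, heme synthesis, membrane proteins and cell cycle exit. In fetal liver, most cells are erythroblasts that lose their organelles and nucleus as they mature. Linkers between zinc fingers help set how firmly such a protein holds DNA.

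In the authors' deposited table, Klf1 itself stood at 398 FPKM in D45/- and 34.8 FPKM in -/- livers, against 378 FPKM with 1 intact allele (+/-). It was called lower in -/- than in +/- livers (log2 ratio -3.44, q = 0.00159) and was not listed for D45/- against +/-. That table holds 1 value per genotype and only results that passed its cuffdiff test at q under 0.05, so the spread between replicates and the depth are unknown. Its smallest q, 0.00159, is a floor set by a smallest p of 5e-05.

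All 71 genes were called lower in -/- than in +/- livers, where 6.78% of about 12964 genes tested were called lower. In D45/- against +/-, 69 of the 71 were called lower, where 1.10% of genes tested were. Both contrasts chose the genes, so nothing is read from these counts. The 2 genes without a call in D45/- were Timm10 and Trim59. The median level was 50.3% of +/- in D45/- livers (14.5% to 59.9%) and 27.3% of +/- in -/- livers (5.26% to 58.5%). The median log2 ratio to +/- was -0.99 in D45/- and -1.87 in -/-, beside -1.12 and -1.03 over all genes called lower in each comparison. The 3 genotypes of each gene are shown in the plot of abundances by role.

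**Figure D1:**
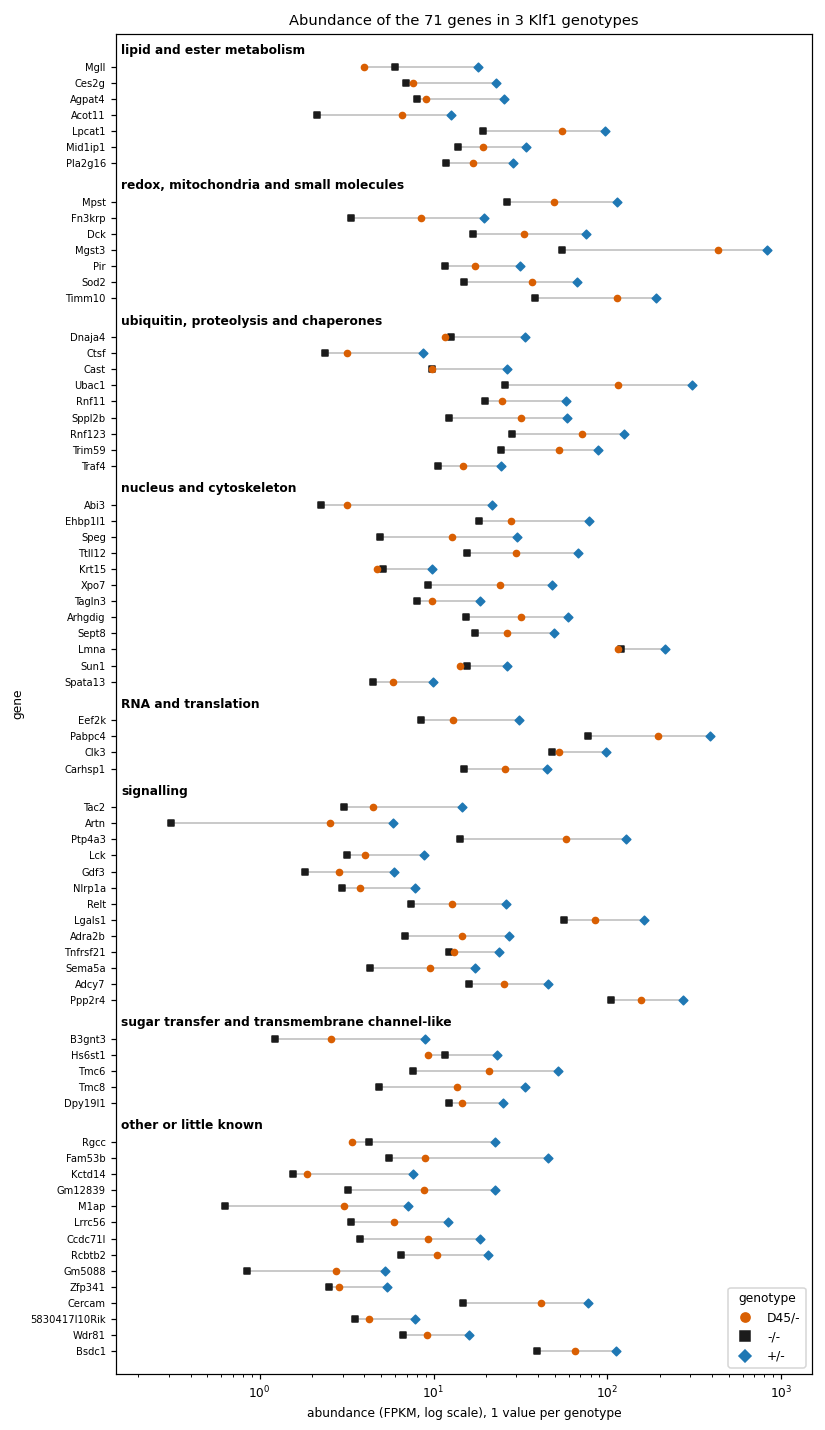
Abundance of the 71 genes (rows, grouped by role) in D45/-, -/- and +/- livers on a log axis in FPKM, with 1 value per genotype and no error available. The +/- value is the highest in every row because the genes were chosen that way, and in 8 rows the D45/- value lies left of the -/- value.

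With q recomputed within D45/- against +/- alone, 46 of the 69 calls passed at 0.05. The 23 that did not, with q from 0.0564 to 0.178, were 5830417I10Rik, Adcy7, Arhgdig, Artn, Bsdc1, Carhsp1, Dpy19l1, Gdf3, Gm12839, Gm5088, Krt15, Lrrc56, Mid1ip1, Pir, Pla2g16, Ppp2r4, Rnf123, Sema5a, Spata13, Tagln3, Traf4, Wdr81 and Zfp341. For these genes the low D45/- level is a value without a firm call.

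The comparison of D45/- with -/- livers divides the 71 genes. D45/- was called above -/- for 31 genes, where 3.48% of genes tested were called higher, and it was called below -/- for 0 genes, where 4.89% were. The other 40 genes had no call, which does not show that their levels were equal. This comparison rests on the same values that chose the genes, so the split is a description. Calls were more frequent among abundant genes: 8 of the 11 genes at or above 100 FPKM in +/- livers were called above -/-, and 3 of the 13 genes under 10 FPKM were. On a linear scale from the -/- level (0) to the +/- level (100), D45/- livers lay at a median of 27.8%, from -21.3% to 49.8%. The rule itself keeps this figure at or under 60%.

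In order of D45/- level relative to +/-, the first gene with a call against -/- was Ubac1, at 37.5%. That call sets the size of the next group, the 13 genes below Ubac1, which by this choice have no call. These were Abi3, Rgcc, Fam53b, Mgll, Kctd14, B3gnt3, Tac2, Ces2g, Dnaja4, Ehbp1l1, Agpat4, Ctsf and Cast, in that order. Their levels were 14.5% to 37.0% of +/- in D45/- livers and 10.4% to 37.3% in -/- livers, with +/- levels of 7.64 to 78.8 FPKM. In the plot of percentages they lie toward the lower left.

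**Figure D2:**
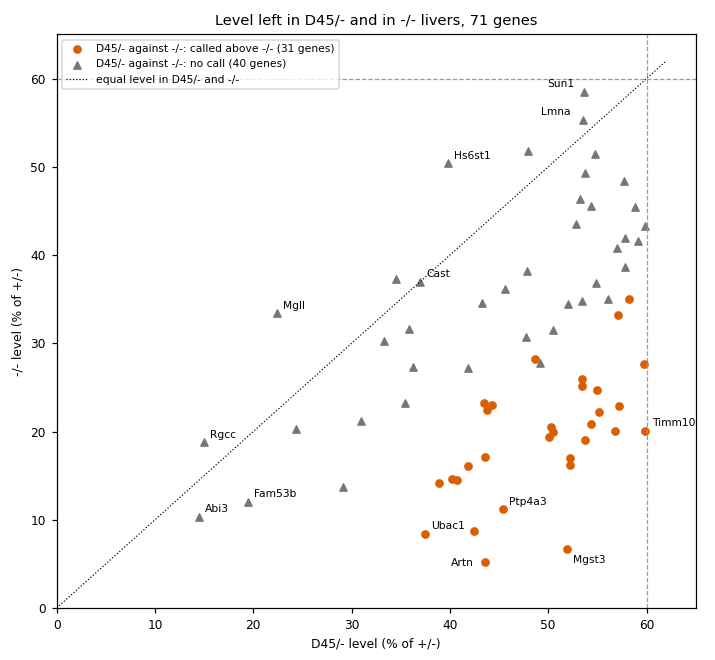
Level in D45/- livers (x axis) and in -/- livers (y axis), each as a percentage of the +/- level, for the 71 genes. Dashed lines mark the 60% limits of the rule, the dotted line marks equal levels, and colour gives the authors' call between D45/- and -/-. The 31 genes called above -/- lie below the dotted line at D45/- levels from 37.5% to 59.9%.

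Enzymes of lipid and ester metabolism made up 7 of the genes. D45/- was called above -/- for 2 of them, beside 31 of all 71 genes and 3.48% of genes tested. Roles were assigned by hand after the values were seen, so nothing is read from counts by role. Mgll, the lipase that splits monoacylglycerols, had 4.01 FPKM in D45/- and 5.99 FPKM in -/- livers, against 17.9 FPKM in +/- livers, in the authors' deposited table. Its D45/- value was the lower of the pair, with no call between them. Agpat4, an acyltransferase that makes phosphatidic acid, had 9.10 FPKM in D45/- and 8.03 FPKM in -/- livers, against 25.4 FPKM in +/- livers, in the authors' deposited table. The carboxylesterase gene Ces2g had 7.60 FPKM in D45/- and 6.91 FPKM in -/- livers, against 22.8 FPKM in +/- livers, there. Ces2g belongs to a family of similar genes that may share reads. All 3 genes were without a call between D45/- and -/-.

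Lpcat1, which rebuilds phosphatidylcholine from its lyso form, behaved otherwise. It had 54.8 FPKM in D45/- and 19.3 FPKM in -/- livers, against 96.5 FPKM in +/- livers, in the authors' deposited table, and D45/- was called above -/- (log2 ratio 1.51, q = 0.00159). The acyl-CoA thioesterase gene Acot11 had 6.57 FPKM in D45/- and 2.13 FPKM in -/- livers, against 12.6 FPKM in +/- livers, in the authors' deposited table, with a call above -/- as well (1.62, q = 0.00159). Mid1ip1, whose product activates acetyl-CoA carboxylase in fatty acid synthesis, and the phospholipase gene Pla2g16 stood at 57.0% and 59.1% of +/- in D45/- livers, and at 40.8% and 41.6% in -/- livers.

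A separate list of 43 other lipid and phospholipid enzymes did not include the enzymes above. That it held none of the 71 genes was thus set by the choice. Of the 43, 9 were listed in the authors' deposited table. In D45/- against +/-, 1 was called lower (the phospholipase gene Pla2g12a, log2 ratio -0.76) and 0 higher, beside 1.10% and 0.663% of all genes tested. In -/- against +/-, 5 were lower and 3 higher, beside 6.78% and 907 of 12964, with a median log2 ratio of -0.83 over the called ones, beside 0.75 over all genes called in that comparison. Sphk1, the kinase that makes sphingosine 1-phosphate, was at 23.8 FPKM in D45/- and 7.33 FPKM in -/- livers, against 28.4 FPKM in +/- livers, in the authors' deposited table.

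Genes for redox enzymes, mitochondrial proteins and small-molecule repair or salvage made up another 7. D45/- was called above -/- for 6 of them, beside 31 of all 71 genes and 3.48% of genes tested. Their median +/- level was 75.6 FPKM, against 27.3 FPKM over the 71 genes, and calls were more frequent among abundant genes. Mgst3, a microsomal glutathione transferase with peroxidase activity, was the most abundant of the 71. It had 430 FPKM in D45/- and 55.0 FPKM in -/- livers, against 829 FPKM in +/- livers, in the authors' deposited table. D45/- was called above -/- (log2 ratio 2.97, q = 0.00159). Sod2, the mitochondrial superoxide dismutase, had 37.0 FPKM in D45/- and 14.9 FPKM in -/- livers, against 67.1 FPKM in +/- livers, there. Timm10, a small chaperone of protein import into mitochondria, had 114 FPKM in D45/- and 38.1 FPKM in -/- livers, against 190 FPKM in +/- livers, in the authors' deposited table. Its D45/- level, without a call against +/-, was the nearest to the midpoint between -/- and +/- (49.8%).

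Mpst, an enzyme of cysteine breakdown that can yield hydrogen sulfide, had 49.5 FPKM in D45/- and 26.5 FPKM in -/- livers, against 114 FPKM in +/- livers, in the authors' deposited table. Dck, which phosphorylates salvaged deoxynucleosides, had 33.1 FPKM in D45/- and 16.9 FPKM in -/- livers, against 75.6 FPKM in +/- livers, there. Fn3krp, a kinase that repairs glycated proteins and is a paralog of the Fn3k gene left out by name, had 8.51 FPKM in D45/- and 3.35 FPKM in -/- livers, against 19.5 FPKM in +/- livers, in the authors' deposited table. All 3 were called above -/- in D45/-, at log2 ratios of 0.90, 0.97 and 1.35. Pir, an iron-binding nuclear protein, stood at 54.8% of +/- in D45/- and 36.8% in -/- livers, without a call between them.

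Ubiquitin pathway proteins, proteases and chaperones accounted for 9 genes. Ubac1 and Rnf123 encode the subunits of the KPC ubiquitin ligase, which marks the cell cycle inhibitor p27 for breakdown. Ubac1 had 114 FPKM in D45/- and 25.6 FPKM in -/- livers, against 305 FPKM in +/- livers, in the authors' deposited table. Rnf123 had 71.1 FPKM in D45/- and 28.4 FPKM in -/- livers, against 124 FPKM in +/- livers, there. Both were called above -/- in D45/- (log2 ratios 2.16 and 1.32, each q = 0.00159). Relative to +/-, Ubac1 was left at 37.5% in D45/- and 8.40% in -/- livers, and Rnf123 at 57.2% and 22.8% in the same order of genotypes.

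Dnaja4, a cochaperone of Hsp70, had 11.6 FPKM in D45/- and 12.6 FPKM in -/- livers, against 33.8 FPKM in +/- livers, in the authors' deposited table. Cast, which encodes the calpain inhibitor calpastatin, had 9.80 FPKM in D45/- and 9.80 FPKM in -/- livers, against 26.5 FPKM in +/- livers, there. For both, the 2 mutant genotypes had nearly the same value. The ring finger gene Rnf11 (43.3% and 34.6% of +/- in D45/- and -/- livers), the lysosomal protease gene Ctsf (36.2% and 27.3%) and the signalling adaptor gene Traf4 (59.9% and 43.3%) had no call between D45/- and -/-. Sppl2b, an intramembrane protease, and the tripartite motif gene Trim59 were called above -/- in D45/- (log2 ratios 1.38 and 1.11).

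The ubiquitin, autophagy and organelle clearance list of 40 genes held 3 of the 71, Ubac1, Rnf123 and Xpo7. Of the list, 16 genes were listed in the authors' deposited table, where the 71 are a part of 2036 listed genes. The list was chosen with earlier results known, so nothing is read from this overlap. In D45/- against +/-, those 3 were called lower and 0 genes higher, where 1.10% and 0.663% of genes tested were. In -/- against +/-, 16 were called lower, where 6.78% were, and 0 higher. Their median log2 ratio was -1.57, beside -1.03 over all genes called lower there. In D45/- against -/-, 13 were called higher and 0 lower, where 3.48% and 4.89% were. The E3 ligase gene Trim58, whose product acts on dynein in enucleating erythroblasts, had 23.7 FPKM in D45/- and 10.6 FPKM in -/- livers, against 31.4 FPKM in +/- livers, in the authors' deposited table. Ube2o, the ubiquitin enzyme that clears ribosomal proteins from reticulocytes, had 137 FPKM in D45/- and 75.8 FPKM in -/- livers, against 134 FPKM in +/- livers, there. Neither was listed for D45/- against +/-.

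Nuclear and cytoskeletal genes made up 12 of the 71. Lmna, which encodes the A-type lamins under the nuclear envelope, had 115 FPKM in D45/- and 119 FPKM in -/- livers, against 216 FPKM in +/- livers, in the authors' deposited table. Sun1, an inner nuclear membrane protein that binds lamin A and ties the nucleus to the cytoskeleton, had 14.2 FPKM in D45/- and 15.5 FPKM in -/- livers, against 26.5 FPKM in +/- livers, there. For both genes D45/- was marginally below -/-, without a call, and their -/- levels (55.3% and 58.5% of +/-) were the highest of the 71. Xpo7, a nuclear exporter abundant in erythroid cells, had 24.0 FPKM in D45/- and 9.31 FPKM in -/- livers, against 47.9 FPKM in +/- livers, in the authors' deposited table. Unlike the other two, it was called above -/- in D45/- (log2 ratio 1.37, q = 0.00159).

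Abi3, a component of the WAVE complex that drives actin branching, was the lowest of all 71 in D45/- livers relative to +/-. It had 3.16 FPKM in D45/- and 2.26 FPKM in -/- livers, against 21.8 FPKM in +/- livers, in the authors' deposited table. Ehbp1l1, which works in vesicle transport, had 28.0 FPKM in D45/- and 18.3 FPKM in -/- livers, against 78.8 FPKM in +/- livers, there. Ttll12, a member of the tubulin tyrosine ligase-like family, had 29.8 FPKM in D45/- and 15.5 FPKM in -/- livers, against 67.5 FPKM in +/- livers, in the authors' deposited table. Of these 3, D45/- was called above -/- for Ttll12 (log2 ratio 0.94, q = 0.00605). The septin gene Sept8, Arhgdig, the muscle kinase gene Speg, the exchange factor gene Spata13, the transgelin gene Tagln3 and the keratin gene Krt15 had D45/- levels of 41.8% to 58.8% of +/-. Speg and Arhgdig were called above -/- (log2 ratios 1.37 and 1.04).

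Genes acting on RNA and translation numbered 4. Pabpc4, a cytoplasmic poly(A)-binding protein, had 195 FPKM in D45/- and 77.0 FPKM in -/- livers, against 387 FPKM in +/- livers, in the authors' deposited table, and was called above -/- in D45/- (log2 ratio 1.34, q = 0.00159). Eef2k, the kinase that restrains translation elongation, had 13 FPKM in D45/- and 8.45 FPKM in -/- livers, against 31.1 FPKM in +/- livers, there. Clk3, a kinase of splicing factors, had 52.6 FPKM in D45/- and 48.3 FPKM in -/- livers, against 97.9 FPKM in +/- livers, in the authors' deposited table. Carhsp1, which encodes a cold-shock domain RNA-binding protein, stood at 57.1% of +/- in D45/- and 33.2% in -/- livers. Pabpc4 and Carhsp1 were thus called above -/- in D45/-, and Eef2k and Clk3 had no call.

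Signalling genes numbered 13. Ligands were sparse: Artn, a ligand of the GDNF family, had 2.55 FPKM in D45/- and 0.308 FPKM in -/- livers, against 5.86 FPKM in +/- livers, in the authors' deposited table. Artn had the lowest -/- level of the 71 relative to +/- (5.26%) and was called above -/- in D45/- (log2 ratio 3.05, q = 0.00159). Tac2, the precursor of neurokinin B, had 4.49 FPKM in D45/- and 3.07 FPKM in -/- livers, against 14.5 FPKM in +/- livers, there. The semaphorin gene Sema5a and the TGF-beta family gene Gdf3 stood at 55.0% and 47.7% of +/- in D45/- livers.

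Among receptors, Relt and Tnfrsf21 of the TNF receptor family stood at 48.6% and 54.8% of +/- in D45/- livers and at 28.3% and 51.5% in -/- livers. The adrenergic receptor gene Adra2b had 14.6 FPKM in D45/- and 6.87 FPKM in -/- livers, against 27.3 FPKM in +/- livers, in the authors' deposited table. Among intracellular members, Ptp4a3, a membrane-anchored phosphatase, had 57.8 FPKM in D45/- and 14.3 FPKM in -/- livers, against 127 FPKM in +/- livers, there. Adra2b, Relt, Ptp4a3 and Sema5a were called above -/- in D45/- (log2 ratios 1.09, 0.78, 2.02 and 1.15). Ppp2r4, an activator of protein phosphatase PP2A, had 157 FPKM in D45/- and 105 FPKM in -/- livers, against 272 FPKM in +/- livers, in the authors' deposited table. The galectin gene Lgals1 had 84.7 FPKM in D45/- and 56 FPKM in -/- livers, against 163 FPKM in +/- livers, there. These 2 abundant genes, like the adenylyl cyclase gene Adcy7, the Src-family kinase gene Lck and the inflammasome gene Nlrp1a, had no call between D45/- and -/-.

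A list of 33 genes of erythropoietin and cytokine signalling held none of the 71, and 10 of its genes were among the 2036 listed. Nothing is read from this lack of overlap, since the list was chosen with earlier results known. In D45/- against +/-, 1 was called lower (Socs3, log2 ratio -1.74) and 0 higher, beside 1.10% lower and 0.663% higher over all genes tested. In -/- against +/-, 3 were lower and 5 higher, beside 6.78% lower and 907 of 12964 higher. The median log2 ratio of those 8 was 0.94, beside 0.75 over all genes called. The erythropoietin receptor gene Epor was at 197 FPKM in D45/- and 96.6 FPKM in -/- livers, against 255 FPKM in +/- livers, in the authors' deposited table, and was not listed for D45/- against +/-.

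The transmembrane channel-like genes Tmc6 and Tmc8 lie head to head on chromosome 11, with 1613 bases between their mm9 loci. Tmc6 had 21.0 FPKM in D45/- and 7.64 FPKM in -/- livers, against 52.2 FPKM in +/- livers, in the authors' deposited table. Tmc8 had 13.7 FPKM in D45/- and 4.85 FPKM in -/- livers, against 33.6 FPKM in +/- livers, there. The 2 neighbours were left at nearly equal shares of the +/- level, 40.2% and 40.7% in D45/- livers and 14.6% and 14.5% in -/- livers. The other 3 genes here act in sugar transfer. Hs6st1, which sulfates heparan sulfate, had 9.26 FPKM in D45/- and 11.7 FPKM in -/- livers, against 23.2 FPKM in +/- livers, in the authors' deposited table, with its D45/- value below its -/- value and no call between them. B3gnt3 and the mannosyltransferase gene Dpy19l1 were left at 29.1% and 57.8% of +/- in D45/- livers.

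The remaining 14 genes are less well known or fit none of these roles. Rgcc, a cell cycle regulator first found as a complement response gene, had 3.39 FPKM in D45/- and 4.26 FPKM in -/- livers, against 22.7 FPKM in +/- livers, in the authors' deposited table. Fam53b had 8.92 FPKM in D45/- and 5.52 FPKM in -/- livers, against 45.8 FPKM in +/- livers, there. Rgcc and Fam53b followed Abi3 as the lowest genes in D45/- livers. M1ap, known from meiosis, had 3.04 FPKM in D45/- and 0.628 FPKM in -/- livers, against 7.15 FPKM in +/- livers, in the authors' deposited table. Cercam, Bsdc1, Ccdc71l, Gm12839 and Gm5088 were, like M1ap, called above -/- in D45/- (log2 ratios 0.73 to 2.28). Gm12839 is a Cyp4b1 pseudogene by its RefSeq name, so its reads may be shared with that gene. Kctd14, Lrrc56, Rcbtb2, Zfp341, Wdr81 and 5830417I10Rik had no call between D45/- and -/-.

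At the limits of the rule, among genes not dropped by name, Traf4 and Timm10 (each 59.9% of +/- in D45/- livers) lay just inside, and Pepd (60.1%) and Fnip2 (60.7%) just outside. For -/-, the nearest gene inside was Sun1 (58.5%), and the nearest outside was the protease inhibitor gene Serpina1e (105%). Genes between them may be missing, because a -/- value is listed only where a comparison with -/- was called. For abundance, Gm5088 (5.23 FPKM in +/-) was inside, and Myo1d (4.97 FPKM) was outside, in the authors' deposited table. After the drops by name, another 9 genes met the D45/- and abundance limits but had no -/- value in the table, and could not be judged.

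Markers of other cells moved in the same comparisons, and their part in the low values was not tested. Against +/-, D45/- livers had 5 of 18 megakaryocyte markers called higher and 0 lower, where 0.663% of genes tested were called higher, and -/- livers had 14 of them higher, where 907 of 12964 genes tested were. Summed over the 6 markers with all values, they stood at 312 FPKM in D45/- and 448 FPKM in -/- livers, against 183 FPKM in +/- livers, in the authors' deposited table. A gene enters this sum, or any sum below, only through a call in a comparison that includes D45/-. The direction of the sums therefore partly follows from that filter. Pf4, at 879 FPKM in -/- and 469 FPKM in +/- livers, had no D45/- value and is left out. Of 15 granulocyte markers, 0 were called in D45/- against +/- and 9 were higher in -/- livers, and 8 of them summed to 1182 FPKM in D45/- and 2368 FPKM in -/- livers, against 1107 FPKM in +/- livers. Of 17 macrophage markers, 1 was lower and 1 higher in D45/-, and 4 were higher in -/- livers, with sums over 5 of 243, 442 and 223 FPKM in D45/-, -/- and +/- livers. Endothelial and stromal markers (14) had 0 calls in D45/- and 3 higher in -/- livers, with sums over 2 of 20.2, 39.5 and 19.0 FPKM in the same order. Of 15 hepatocyte markers, 1 was lower and 2 higher in D45/- and 0 were called in -/- against +/-, with sums over 2 of 116, 251 and 213 FPKM. Nearly all of that sum is Serpina1b (109, 247 and 210 FPKM in D45/-, -/- and +/- livers), which has near-identical copies. The other gene in it, Cps1, was highest in D45/- (7.85, 4.18 and 3.87 FPKM). No marker was listed at 0, and Alb and Afp had no row. Since only changed genes are listed, the labelled tissue could not be checked against the levels of all its markers. Among red cell genes, 5 heme synthesis enzymes summed to 3751 FPKM in D45/- and 1532 FPKM in -/- livers, against 4716 FPKM in +/- livers, in the authors' deposited table. Since KLF1 activates such genes, these sums do not measure red cell content.

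Binding of KLF1 was not used to choose the genes. The authors called 485 peaks in MommeD45 and 1203 in wildtype livers, and a gene was counted as bound nearby when a peak lay within 10 kb of its mm9 locus. For MommeD45 peaks this held for 10 of the 71 genes (14.1%, exact 95% interval 6.97 to 24.4), beside 7.37% of all listed genes. For wildtype peaks it held for 26 of the 71 (36.6%, 25.5 to 48.9), beside 16.1% of all listed genes. The 750 other genes called lower in -/- livers with at least 5 FPKM in +/- livers are a closer comparison, but not a matched one. Their median +/- level was 53.2 FPKM, against 27.3 FPKM in the 71 genes. Their median -/- level was 51.3% of +/-, against 27.3% in the 71. A D45/- value, which the rule required of the 71, was listed for 347 of the 750. The 750 still hold Klf1 itself and any genes dropped by name that were called lower in -/- livers. Of the 750, 107 (14.3%, 11.8 to 17.0) lay near a MommeD45 peak and 223 (29.7%, 26.5 to 33.1) near a wildtype peak. The share near a MommeD45 peak was thus almost the same in both sets, and the intervals for wildtype peaks overlap. The intervals cover counting error only, and with 1 library per genotype and neighbouring genes that share peaks no test was made.

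**Figure D3:**
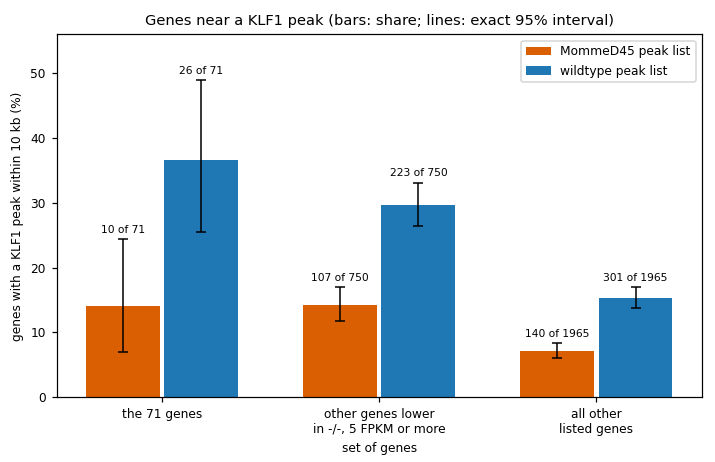
Share of genes with a KLF1 peak within 10 kb of the locus (y axis, percent) in the 71 genes, in 750 other genes called lower in -/- livers, and in all 1965 other listed genes, which include those 750. Bars give MommeD45 and wildtype peak lists, and lines exact 95% intervals. The 71 genes stand at 14.1% and 36.6%, beside 14.3% and 29.7% in the middle set and 7.12% and 15.3% in the last.

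Genes with and without a call between D45/- and -/- did not part clearly by binding within 10 kb. A MommeD45 peak lay near 4 of the 31 genes called above -/- (12.9%, 3.63 to 29.8) and near 6 of the 40 others (15.0%, 5.71 to 29.8). A wildtype peak lay near 12 of the 31 (38.7%, 21.8 to 57.8) and near 14 of the 40 (35.0%, 20.6 to 51.7). The differences are within these intervals. Within 50 kb the gap was wider for wildtype peaks, near 19 of the 31 (61.3%, 42.2 to 78.2) and 15 of the 40 (37.5%, 22.7 to 54.2). For MommeD45 peaks the shares within 50 kb were 22.6% and 15.0%. Wildtype summits within 1000 bases of the start were found in 26.9% and 15.2% of genes of known strand, and MommeD45 summits in 3.85% and 6.06%. These intervals overlap too, and no test was made.

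Near the 71 genes lay 10 MommeD45 peaks, of which 8 overlapped a wildtype peak (80.0%, 44.4 to 97.5), where 362 of all 485 MommeD45 peaks did (74.6%). There were 30 wildtype peaks, of which 8 overlapped a MommeD45 peak (26.7%, 12.3 to 45.9), where 361 of all 1203 wildtype peaks did. Fold enrichment over the local background, the authors' own value for each peak, had a median of 4.54 in the 10 MommeD45 peaks and 4.77 in the whole MommeD45 list. In the 30 wildtype peaks the median was 5.63, beside 4.93 in the whole wildtype list. The median of the peaks near the 71 genes was thus slightly below that of the whole list for MommeD45, and above it for wildtype. This difference was not tested.

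The strongest peak of the set lay inside Agpat4 in both lists. It was at chr17:12397780-12398137 (mm9) in MommeD45, with a fold enrichment of 23.5 (rank 11 of 485), and at chr17:12397757-12398290 in wildtype, with 23.9 (rank 21 of 1203). Its MommeD45 summit was 85802 bases into the locus, which runs from 12312150 to 12412506. Agpat4 was 1 of the 13 lowest genes in D45/- livers, so a strong MommeD45 peak and a low level occurred at the same gene. Eef2k, Lrrc56, Mpst, Rgcc, Spata13, Ttll12 and Ubac1 also had a peak shared by both lists. Ptp4a3 and Sun1 had MommeD45 peaks that no wildtype peak overlapped, at fold enrichments of 3.87 and 3.13.

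Peaks at the start of the gene were compared for the 59 genes whose strand was known from RefSeq. A MommeD45 summit lay within 1000 bases of the start in 3 of them (5.08%, 1.06 to 14.1), and a wildtype summit in 12 (20.3%, 11.0 to 32.8). In the 618 other genes lower in -/- livers, these shares were 6.96% (5.08 to 9.26) and 16% (13.2 to 19.2). The 3 genes in MommeD45 were Rgcc, Sun1 and Ttll12. The 12 in wildtype were Bsdc1, Carhsp1, Ces2g, Ehbp1l1, Fn3krp, Lpcat1, Mid1ip1, Pabpc4, Rgcc, Sun1, Tmc6 and Ttll12. Relative to the start, the summit in Ttll12 was at -37 in MommeD45 and at -65 in wildtype, with fold enrichments of 7.99 and 17.8 in their own lists. In Rgcc it was at 60 in MommeD45 and at -58 in wildtype, and in Sun1 at -138 in MommeD45 and at -607 and -3531 in wildtype. A single wildtype peak, at chr11:117641920-117642477 (mm9), covered the start of Tmc6 and lay between it and Tmc8, and no MommeD45 peak was called there.

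**Figure D4:**
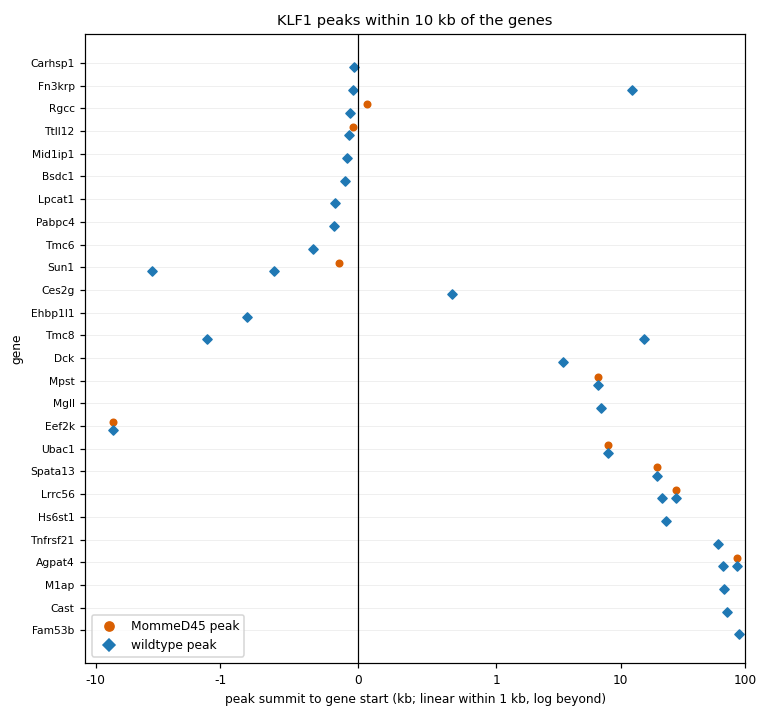
Distance in kb from the gene start to the summit of each KLF1 peak within 10 kb of the locus (x axis, linear within 1 kb and logarithmic beyond), for the 26 genes with a wildtype peak. Circles are MommeD45 peaks and diamonds wildtype peaks. Rows are ordered by the distance of the nearest wildtype summit from the start, so summits near the start fill the upper rows by construction. Most wildtype summits in those rows lie upstream of the start, and MommeD45 summits within 1 kb are seen at Rgcc, Sun1 and Ttll12.

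The 250 bases before the RefSeq start (build GRCm38.p6, gene strand, 5′ to 3′) are given for the 7 genes with a summit within 250 bases of the start and a RefSeq gene length within 100 bases of the mm9 locus length. In these genes a summit from either list falls on the printed sequence, if the mm9 and RefSeq starts are the same base. Capitals mark CCNCNCCC, a loose form of the KLF1 binding element, on either strand. In that order the windows are chr15:83595158-83595407 on the minus strand, chr14:79301636-79301885 minus, chr5:139200387-139200636 plus, chr16:8672154-8672403 minus, chrX:10717115-10717364 plus, chr4:129461429-129461678 plus and chr4:123282661-123282910 plus.
Ttll12: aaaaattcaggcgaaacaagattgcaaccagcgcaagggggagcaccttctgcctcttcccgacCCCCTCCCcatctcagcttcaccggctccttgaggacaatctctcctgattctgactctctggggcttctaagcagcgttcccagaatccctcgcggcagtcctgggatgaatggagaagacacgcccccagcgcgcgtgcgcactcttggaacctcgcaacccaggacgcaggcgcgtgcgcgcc
Rgcc: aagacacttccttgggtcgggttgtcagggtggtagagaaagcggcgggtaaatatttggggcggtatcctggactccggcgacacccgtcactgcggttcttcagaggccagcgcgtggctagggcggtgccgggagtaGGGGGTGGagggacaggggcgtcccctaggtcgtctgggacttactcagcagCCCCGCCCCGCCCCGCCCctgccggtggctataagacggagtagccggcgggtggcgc
Sun1: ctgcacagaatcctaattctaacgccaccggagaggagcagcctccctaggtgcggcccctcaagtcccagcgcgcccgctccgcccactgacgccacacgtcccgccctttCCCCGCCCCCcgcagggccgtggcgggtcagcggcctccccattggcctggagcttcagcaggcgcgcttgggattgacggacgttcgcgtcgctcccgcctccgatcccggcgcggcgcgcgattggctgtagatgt
Carhsp1: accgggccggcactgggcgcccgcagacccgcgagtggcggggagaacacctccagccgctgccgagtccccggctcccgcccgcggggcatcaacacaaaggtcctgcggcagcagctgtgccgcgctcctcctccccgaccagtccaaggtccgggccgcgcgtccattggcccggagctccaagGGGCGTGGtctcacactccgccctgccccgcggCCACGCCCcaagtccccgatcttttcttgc
Mid1ip1: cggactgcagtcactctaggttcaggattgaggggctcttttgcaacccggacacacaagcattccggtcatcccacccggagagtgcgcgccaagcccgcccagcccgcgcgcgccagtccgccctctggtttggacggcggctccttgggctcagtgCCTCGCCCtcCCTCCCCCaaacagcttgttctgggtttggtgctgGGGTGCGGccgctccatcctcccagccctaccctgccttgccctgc
Bsdc1: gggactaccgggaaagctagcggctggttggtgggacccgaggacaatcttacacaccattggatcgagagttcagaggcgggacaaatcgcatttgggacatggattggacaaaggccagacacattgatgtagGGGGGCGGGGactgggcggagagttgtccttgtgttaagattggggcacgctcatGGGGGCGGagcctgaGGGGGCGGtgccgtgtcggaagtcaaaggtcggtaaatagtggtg
Pabpc4: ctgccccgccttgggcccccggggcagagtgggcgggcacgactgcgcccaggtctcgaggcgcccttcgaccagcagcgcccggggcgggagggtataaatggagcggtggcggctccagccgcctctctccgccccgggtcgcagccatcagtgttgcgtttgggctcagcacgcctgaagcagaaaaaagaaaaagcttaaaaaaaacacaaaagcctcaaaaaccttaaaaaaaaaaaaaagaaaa
In Rgcc the matches began 110, 58, 53 and 48 bases before the start, around the wildtype summit at -58. The MommeD45 summit of Rgcc, at 60, lay past the start and outside the printed bases. In Carhsp1 they began 63 and 30 bases before it, with the wildtype summit at -29. In Mid1ip1 they began 91, 81 and 46 bases before it, with the wildtype summit at -81, and in Bsdc1 115, 113, 60 and 45 bases before it, with the wildtype summit at -95. In Sun1 the matches began 138 and 136 bases before the start, with the MommeD45 summit at -138. The wildtype summits of Sun1, at -607 and -3531, lay outside the window. Ttll12 had 1 match, at 186 bases, away from its summits, and Pabpc4 had none in the window. Summits were counted from the mm9 locus start and matches from the RefSeq start. The gene lengths in the 2 sources differ by 7 bases for Carhsp1, 66 for Bsdc1 and 92 for Pabpc4. Summits and matches of these genes therefore cannot be placed against each other to the base. A match is a run of letters and not a shown binding site.

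Over all 59 genes with a promoter window of 300 bases (250 before and 50 after the start), CCNCNCCC on either strand was found in 43 (72.9%, exact 95% interval 59.7 to 83.6). It was found in 70.0% of 1569 other listed genes and in 49.5% of all 32851 windows of the table. The shorter CACCC, which can overlap CCNCNCCC, was found in 66.1%, 64.9% and 57.5% of the same sets. GATAA, the core of GATA elements, was found in 6 of the 59 (10.2%, 3.82 to 20.8), beside 19.2% and 25.4%, and TATAAA in 1 of the 59 (1.69%, 0.0429 to 9.09), beside 8.86% and 13.6%. For both CACCC-type motifs, the share in the 71 genes' promoters was close to that in other listed genes.

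The 71 genes lay on 19 chromosomes, with 9 on chromosome 11 and 7 on chromosome 4. Apart from Tmc6 and Tmc8, Bsdc1 and Lck were the only pair within 100 kb of each other, with 59911 bases between them.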

How the data were processed

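The authors' deposited gene table gives cuffdiff comparisons of 9 mRNA libraries, with TopHat2 2.0.10 and mm9 named in the submitters' processing notes; the sources used here give neither cuffdiff's version nor its options. Per the file headers it holds 1 abundance per genotype, taken to be FPKM from cuffdiff's layout, a log2 ratio without pseudocount, a test score, and a p-value and q-value. Log2 ratios were turned so that the first-named genotype is on top. Deposited q-values imply 38894 tests over 3 comparisons, taken as 12964 each. The deposited peak lists came from MACS2 after Bowtie2 mapping and Picard duplicate removal, per the deposited description sheet, with a pileup signal, a fold enrichment ratio and −log10 of p and q per the file headers. Peaks with several summits were counted at their strongest. Deposited loci start from 0 (598 widths equal RefSeq's), so 1 was added. All 71 symbols matched RefSeq, 4 through older names, and 59 had promoter sequence. The genes and lists were chosen with earlier results of these data known; roles were assigned by hand, after the values were seen. Counts and medians are given for the lipid, ubiquitin and cytokine signalling lists, without a set test, and for heme synthesis enzymes only a sum. Lists of membrane skeleton, surface antigen, channel and pump, erythroid transcription factor, cell cycle and chromatin genes were also drawn up. They held none of the 71 genes and are not described. Named genes were the extremes of either ratio and of +/- abundance, list members, bound genes and those at the limits; other members are named to complete the account, and other genes as examples chosen after their values were seen. Depth is unknown. Intervals are Clopper-Pearson. The recomputed q, the peak search and the rule were tested on simulated data. Python 3.11.15, pandas 2.3.3, scipy 1.17.1 and numpy 2.4.6 were used.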

Additional observations from a re-analysis of the deposited data

How the results depend on the processing

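Of 33 alternatives, 22 left their result within 1.5 times (counts) or within its exact interval (shares), and 11 did not, any shift of a median included. With limits of 50% and 70% of +/- in place of 60%, the rule kept 32 and 121 genes. At q under 0.01, 45 genes were called lower in D45/- against +/-. The median position of D45/- between -/- and +/- was 40.6% on the log2 scale and 27.6% over the 69 genes called in both comparisons. With peaks at or above their list's median fold, 4.23% of the genes lay near a MommeD45 peak and 23.9% near a wildtype peak. The same shares with those stronger peaks were 7.07% and 16.8% in the 750 other genes called lower in -/-. With all peaks, other listed genes stood at 7.12% for MommeD45 and 15.3% for wildtype peaks. Restricted to at least 5 FPKM in +/-, they stood at 10.8% and 22.1%. Restricted further to genes called lower in -/-, a comparison added after the data were seen, they stood at 14.3% and 29.7%. Counting genes that share a peak once, likewise added later, gave 14.1% for MommeD45 and 35.7% for wildtype peaks. The cause of these shifts was not tested, apart from thresholds that by construction keep fewer or more genes. No paired analysis was possible because the gene table holds group values only, so leaving out single replicates was not run either.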

Other observations

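Several genes were low in D45/- livers without being low in -/- livers. After the same drops by name, 80 genes were at or below the D45/- limit with at least 5 FPKM in +/- livers and a value in all genotypes. Of these, 9 stood above the -/- limit, and all 9 were at 105% of +/- or more in -/- livers. They included the heat shock genes Hspa1b (2.19 FPKM in D45/- and 17.5 FPKM in -/- livers, against 10.6 FPKM in +/- livers) and Hspa1a (4.43 FPKM in D45/- and 19.5 FPKM in -/- livers, against 13 FPKM in +/- livers) in the authors' deposited table. The macrophage scavenger receptor gene Marco (5.19 FPKM in D45/- and 25.7 FPKM in -/- livers, against 14.9 FPKM in +/- livers) and the cytokine signalling suppressor gene Socs3 (1.74 FPKM in D45/- and 6.39 FPKM in -/- livers, against 5.79 FPKM in +/- livers) showed the same order there. The others were Serpina1e, Serpina1b, Gm5506, Stfa1 and Cxcl10, of which Stfa1 is listed at 0 in D45/- livers and Cxcl10 had no call against +/-. D45/- was called below -/- for all 9. A -/- value is listed only where a comparison with -/- was called. Genes with an uncalled -/- level between those of D45/- and +/- are therefore missing here. Nothing is read from the gap below 105% or from the calls against -/-. The serpin and stefin genes have near-identical copies, so their values are uncertain.

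After the drops by name, another 9 genes met the D45/- and abundance limits but had no -/- value, so no call involving -/- was listed for them. They were Fcho1, Ier3, Klhl7, Lrp8, Pla2g12a, Plekhg5, Ppa2, Sept1 and Stk10, at 48.7% to 59.2% of +/- in D45/- livers. In the authors' deposited table Ier3, an immediate early response gene, had 16 FPKM in D45/- livers against 32.5 FPKM in +/- livers, and Ppa2, the mitochondrial pyrophosphatase gene, had 20.9 FPKM in D45/- livers against 39.3 FPKM in +/- livers.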
